A study of Homo sapiens with 15 samples.

Results

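The nuclear genes for subunits of the oxidative phosphorylation machinery were followed over a laminin-based differentiation towards heart cells, sampled on days 0, 4, 9, 11 and 20. The cells were H1, an established line of human embryonic stem cells. Members were chosen by symbol among GENCODE protein-coding genes: NDUFA, NDUFB, NDUFC, NDUFS or NDUFV with a number for complex I, SDHA to SDHD for complex II, symbols that start with UQCR for complex III, the COX4 to COX8 genes for complex IV and symbols that start with ATP5 for complex V. The rule found 87 symbols, all of them among the 48777 genes of the tables, and 85 of these reached a mean of at least 1 TPM (a transcript level scaled for gene length and library size) on some day. They comprised 37 genes of complex I, 4 of complex II, 9 of complex III, 16 of complex IV and 19 of complex V. The 2 symbols left out were COX7B2, whose highest daily mean was 0.948 TPM, and the readthrough gene ATP5MF-PTCD1, at 0.353 TPM. The members nearest to the limit were ATP5MGL, with a highest daily mean of 3.20 TPM, and NDUFA7, at 3.97 TPM.

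Oxidative phosphorylation takes place in the inner mitochondrial membrane. Complexes I and II pass electrons from NADH and succinate to ubiquinone, complex III passes them on to cytochrome c, complex IV (cytochrome c oxidase) reduces oxygen, and complex V (ATP synthase) uses the proton gradient built by complexes I, III and IV to make ATP. Heart muscle depends on this pathway for most of its ATP, whereas pluripotent cells lean more on glycolysis. Complexes I, III, IV and V also hold subunits encoded in mitochondrial DNA. The authors removed mitochondrial genes from the tables, and those subunits were not analysed here.

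The labels give the laminins LN-521 and LN-221 for all 5 groups, whereas the deposited sample table lists LN-521 alone for day 0. Day 0 cells were undifferentiated and kept in Nutristem medium. Per the treatment protocol the GSK3 inhibitor CHIR99021 was added at day 4 in RPMI 1640 with B27 without insulin, the Wnt secretion inhibitor IWP2 at day 7, and plain differentiation medium at days 9 and 11, while the growth protocol gives earlier days for both inhibitors and CTS B-27 Supplement from day 11. Each day had 3 libraries of total RNA, which the labels call biological replicates, all from the H1 line and from triplicate wells, so that p-values measure the spread between cultures of 1 line. Libraries are named here by the plate number in their sample names. Day 4 had plates 1, 2 and 5, day 9 had plates 2 and 6 and a library without a plate number, day 11 had plates 2, 5 and 6, and day 20 had plate 2, a second library labelled 2_3 and plate 6. In the sample names of days 9 and 20, plate 6 is spelled 6_1, and the deposited sample table uses 6_1 for plate 6 of day 11 as well. The sources used here do not say whether equal numbers mark the same plate on different days.

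Library totals ran from 11990302 to 33469703 counts, with a median of 22867831. Marker genes moved as the labels imply: the 5 pluripotency markers summed to between 5691 and 7898 TPM on day 0 and to between 90.1 and 129 TPM on day 20, and the 6 cardiomyocyte markers to between 20.7 and 23.5 TPM on day 0 and to between 5358 and 18790 TPM on day 11. The 3 day 20 libraries differed in what they held. Cardiomyocyte markers summed to 16740 TPM in plate 2, 16320 TPM in the library labelled 2_3 and 4001 TPM in plate 6, the 6 mesenchymal markers to 3173, 1198 and 24360 TPM, and the 5 yolk sac or liver endoderm markers to 17930, 701 and 21630 TPM. The 4 endothelial markers summed to 96.4, 132 and 559 TPM in the same libraries, most of it KDR at 69.7, 105 and 413 TPM. TEK was also highest in plate 6. CDH5 (8.04, 5.89 and 3.35 TPM) and PECAM1 (2.70, 4.17 and 2.26 TPM) were lowest there. On day 0 the endothelial sum was already 157 to 319 TPM. No gene of these lists was listed at 0 in all 3 libraries of a day. The library labelled 2_3 had an RNA integrity number of 6.1, against 8.8 or more in the others, and the most genes with a count, 48230. In bulk samples, fewer cells of a type and less RNA per cell cannot be told apart. Genes with an implied length under 200 bases took 29.2% of all TPM in day 0 replicate 3 and 22.7% in day 9 plate 2, against 5.66% to 11.9% in the other 13 libraries. These were also the libraries with the lowest uniquely mapped share, 35% and 46%, and sums of TPM are therefore given both as deposited and rescaled to the same total without those short genes.

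Levels differed widely among members of 1 complex. Averaged over the 5 daily means, complex I ran from 3.15 TPM for NDUFA7 to 765 TPM for NDUFS5, with a median of 57.0 TPM over its members. In complex II, SDHC was lowest at 17.0 TPM and SDHB, the iron-sulfur subunit, highest at 70.8 TPM. UQCRHL at 15.8 TPM and UQCRH, the hinge protein, at 443 TPM bounded complex III, and COX8C at 2.26 TPM and COX8A at 498 TPM bounded complex IV. In complex V, ATP5F1B, the catalytic beta subunit, had the highest level of all members at 1390 TPM, and ATP5MGL the lowest of the complex at 1.71 TPM. The order of low genes rests on gene lengths that are not stated: the TPM of SDHC implies a length of 14160 bases, whereas its exons cover 1902 bases in GENCODE. Exons of 46 members overlap those of another gene, 27 of them on the same strand. NDUFA7 is 1 of these, with 395 counts over all 15 libraries, and how shared reads were counted is not stated. Pseudogenes are annotated for 49 members and held 0.863% of the counts of all 85 members and the pseudogenes together. The share on pseudogenes of a single member was highest for SDHA (23.7%) and NDUFV2 (21.9%).

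Most members had their lowest daily mean on day 9 and their highest on day 20, with differences between the complexes in the former. Day 9 had the lowest mean TPM of 53 of the 85 members (62.4%), against 20.1% of the 24561 genes that passed the count filter over all 15 libraries and 1 TPM on some day. Day 20 had the highest mean of 73 members (85.9%), against 46.9% of those genes. In rescaled TPM these counts were 45 (52.9%) and 67 members (78.8%), against 16.7% and 44.4%. By complex, day 9 was then lowest for 16 of 37 members of complex I, 3 of 4 of complex II, 5 of 9 of complex III, 12 of 16 of complex IV and 9 of 19 of complex V, or 43.2% in complex I and 47.4% in complex V. The course of the complexes was not compared by a test. UQCRH varied least, with a ratio of 1.13 between its highest and lowest daily mean, and COX6A2, the heart and skeletal muscle isoform of a complex IV subunit, varied most, with a ratio of 192.

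As deposited, the 85 genes together summed to 11344, 12158 and 8549 TPM on day 0, to 11673, 10342 and 11478 TPM on day 4, to 8348, 10498 and 9056 TPM on day 9, to 10924, 11074 and 12426 TPM on day 11, and to 19550, 13934 and 11707 TPM on day 20. Day 9 was lowest on average, although 1 of its libraries lay above 1 of day 4. After rescaling, all 3 libraries of day 9 (10150 to 11303 TPM) lay below all 3 of day 4 (11741 to 12777 TPM), and those of day 0 drew together at 12078 to 13023 TPM. The rise of the day 20 mean rested on plate 2, with 20723 rescaled TPM, and the library labelled 2_3, with 15221, whereas plate 6, at 12509, lay inside the range of day 11. Sums over members are given as a description, with no test.

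**Figure D1:**
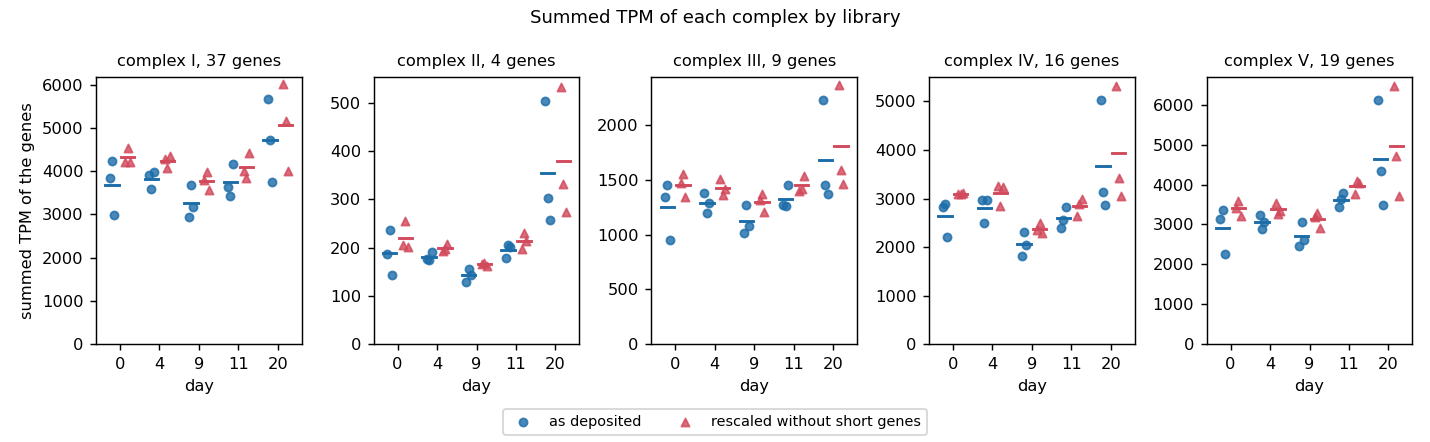
Summed TPM of the member genes of each complex (vertical axis, from 0) by day (horizontal axis), with 1 point per library and a bar at the mean of 3 libraries, as deposited (circles) and rescaled without genes under 200 bases (triangles). As deposited, complex IV had its lowest mean on day 9 (libraries at 1813 to 2314 TPM), and the day 20 libraries were spread from 2861 to 5024 TPM in complex IV and from 257 to 502 TPM in complex II.

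Between day 0 and day 4, before and at confluence, none of the member genes passed the test. None of the 82 members tested with edgeR's quasi-likelihood test on the counts was called at an adjusted p-value under 0.05, and 0% of all 20964 genes tested were called in either direction. At an unadjusted p-value under 0.05 there were 0 members and 741 genes in all. DESeq2 also called 0 members and 0 genes. The median log2 fold change was -0.01 over the members and -0.01 over all genes. SDHA, the flavoprotein subunit of complex II, stood at 48.5, 45.6 and 37.6 TPM on day 0 and at 38.0, 43.6 and 56.0 TPM on day 4, so that the 2 days overlapped.

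From day 4 to day 9, which spans the Wnt-directed steps of the protocol, 37 members changed, and most of those that changed were lower. Of 82 members tested, 29 (35.4%) were lower and 8 (9.76%) were higher on day 9, where 24.7% of all 21252 genes tested were lower and 24.3% were higher. The median log2 fold change of the members was -0.19, against 0.01 over all genes. Complex IV had the most calls for its size, with 9 lower and 1 higher of 14 tested and a median of -0.46. Both the 9 and the 29 include COX4I2, which passed the filter on low counts only through day 4. Its place among them is a description and not a test. Complex I had 10 lower and 2 higher of 37, complex II 1 lower of 4, complex III 3 lower and 1 higher of 9, and complex V 6 lower and 4 higher of 18. Differences between complexes were not tested. Pluripotency markers fell over the same interval, from between 6358 and 7749 TPM to between 1731 and 2185 TPM in sum, all 5 past the test, and 5 of 6 cardiomyocyte markers rose, from between 16.6 and 19.2 TPM to between 349 and 770 TPM. The part of these changes in the members' values was not tested.

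In complex I, NDUFB9, an accessory subunit of the membrane arm, stood at 93.6, 98.0 and 113 TPM on day 4 and at 45.4, 57.5 and 63.4 TPM on day 9. All 3 later libraries lay below all 3 earlier ones, with a log2 fold change of -0.85 (SE 0.14, edgeR adjusted p = 0.00134). NDUFA4, first counted as a complex I subunit and since assigned to complex IV, went from between 188 and 224 TPM to between 124 and 162 TPM (log2 fold change -0.55, SE 0.12, edgeR adjusted p = 0.00502). NDUFB5, another membrane arm subunit, took the opposite course, from 30.1, 27.0 and 29.7 TPM to 37.2, 46.6 and 44.4 TPM (log2 fold change 0.58, SE 0.11, edgeR adjusted p = 0.00268). NDUFA10, of the same complex, rose by 0.35 on the log2 scale (SE 0.11, edgeR adjusted p = 0.0327), a call lost in 10 of 16 alternatives, among them DESeq2 and the fits without plate 2 or 5 of day 4 or plate 6 of day 9.

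In complex II only SDHB was called, falling from 64.5, 60.1 and 63.7 TPM to 39.6, 51.9 and 44.6 TPM (log2 fold change -0.46, SE 0.11, edgeR adjusted p = 0.00837). In complex III, UQCRC2, a core subunit, rose from between 106 and 124 TPM to between 130 and 159 TPM (log2 fold change 0.32, SE 0.11, edgeR adjusted p = 0.046). This call was lost in 12 of 16 alternatives, among them DESeq2 and the fits without plate 2 or 5 of day 4 or plate 2 or 6 of day 9.

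In complex IV, the 2 genes that fell furthest encode minor isoforms. COX4I2, the isoform of subunit 4 that is abundant in lung and linked to low oxygen, stood at 5.93, 4.12 and 5.61 TPM on day 4 and at 0.876, 0.264 and 0.195 TPM on day 9. Its counts were 34, 17 and 24 on day 4 and 3, 1 and 1 on day 9, which gives a ratio of summed counts per library total of 0.0811 with an exact 95% interval, for counting error only, of 0.0256 to 0.198. COX6B2, the testis isoform of subunit 6B, went from 9.21, 5.24 and 5.74 TPM to 1.38, 0.912 and 1.42 TPM (log2 fold change -2.41, SE 0.32, edgeR adjusted p = 4.54e-04). COX6A1, the isoform of subunit 6A found in most tissues, fell from 236, 207 and 259 TPM to 98.2, 132 and 158 TPM (log2 fold change -0.84, SE 0.17, edgeR adjusted p = 0.00406). The only complex IV symbol to rise was COX7A2L, a homologue of subunit 7A that acts in the assembly of respiratory supercomplexes, from 49.8, 37.3 and 42.1 TPM to 67.7, 92.1 and 73.3 TPM (log2 fold change 0.86, SE 0.14, edgeR adjusted p = 0.00123). For each of these genes the libraries of the 2 days did not overlap.

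Complex V was divided. ATP5PD, the d subunit of the peripheral stalk, fell from 113, 110 and 110 TPM to 51.4, 64.7 and 51.8 TPM (log2 fold change -0.98, SE 0.10, edgeR adjusted p = 1.26e-04). ATP5PF, coupling factor 6 of the same stalk, rose from between 49.0 and 52.1 TPM to between 57.3 and 83.0 TPM (log2 fold change 0.40, SE 0.13, edgeR adjusted p = 0.0333). This call was lost in 11 of 16 alternatives, among them DESeq2 and the fits without any 1 of the day 4 libraries or without plate 6 of day 9. ATP5MJ, a small subunit of the membrane part, rose from 55.0, 47.4 and 51.3 TPM to 65.0, 87.1 and 70.9 TPM (log2 fold change 0.55, SE 0.11, edgeR adjusted p = 0.0044). Members of the stalk thus included both a gene that rose and a gene that fell.

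ATP5MC1, ATP5MC2 and ATP5MC3 encode the same mature c subunit of the proton-driven ring and differ in their import sequences. ATP5MC1 fell from 53.2, 55.3 and 62.6 TPM on day 4 to 24.2, 37.6 and 29.3 TPM on day 9 (log2 fold change -0.90, SE 0.14, edgeR adjusted p = 0.00111), while ATP5MC2 rose from 159, 125 and 148 TPM to 200, 215 and 186 TPM (log2 fold change 0.49, SE 0.13, edgeR adjusted p = 0.0124, not past the test without plate 2 of day 4). ATP5MC1 supplied 20.4% ± 1.95 (SD, n = 3) of the summed TPM of the 3 genes on day 4 and 10.1% ± 1.5 on day 9, and ATP5MC2 51.3% ± 3.12 and 66.9% ± 2.62. The log2 ratio of ATP5MC1 to ATP5MC2, a comparison chosen after the values were seen, differed by -1.38 between the days, with an exact two-sided permutation p of 0.1, the smallest that 3 libraries against 3 can give. On day 20 the share of ATP5MC1 was 23.5% ± 8.95. ATP5MC3 stayed between 23.0% and 35.4% in its daily means.

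The promoters of the first pair are printed because the 2 genes moved in opposite directions. They are RefSeq windows of 300 bases on GRCh38.p14, from 250 bases before to 50 after the start site, in the direction of the gene. Capitals mark matches on either strand to the NRF1 core GCATGCGC, the ETS core CCGGAAG (bound by GABPA, among others), the YY1 core ATGGCGG and the estrogen-related receptor site TCAAGGTCA. The window of ATP5MC1 lies at chr17:48892537-48892836 on the plus strand and holds none of them, and that of ATP5MC2, at chr12:53676034-53676333 on the minus strand, holds 1 NRF1 core.
ATP5MC1: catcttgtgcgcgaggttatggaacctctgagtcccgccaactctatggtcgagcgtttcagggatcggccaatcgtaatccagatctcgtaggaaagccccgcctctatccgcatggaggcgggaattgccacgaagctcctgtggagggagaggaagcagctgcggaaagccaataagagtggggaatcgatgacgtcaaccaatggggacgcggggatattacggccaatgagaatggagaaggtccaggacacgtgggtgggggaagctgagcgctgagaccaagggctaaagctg
ATP5MC2: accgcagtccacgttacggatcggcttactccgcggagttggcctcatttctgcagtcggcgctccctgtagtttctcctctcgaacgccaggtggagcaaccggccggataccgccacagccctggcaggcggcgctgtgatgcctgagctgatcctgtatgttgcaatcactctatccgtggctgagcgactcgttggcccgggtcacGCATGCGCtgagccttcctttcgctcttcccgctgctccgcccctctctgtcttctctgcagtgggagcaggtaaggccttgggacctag

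The number of members called between day 4 and day 9 depended on single libraries and on the fit. It was 24 without the plate 1 library of day 4, 24 without its plate 5 library and 21 without the plate 2 library of day 9, the library with many short genes, of which 15 were lower and 6 higher. The share of all genes called in these fits is not given, so that the counts show the instability alone. With all 15 libraries in 1 fit, 9 members were lower and 0 higher, where 13.2% of 24767 genes were lower and 11.9% were higher.

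**Figure D2:**
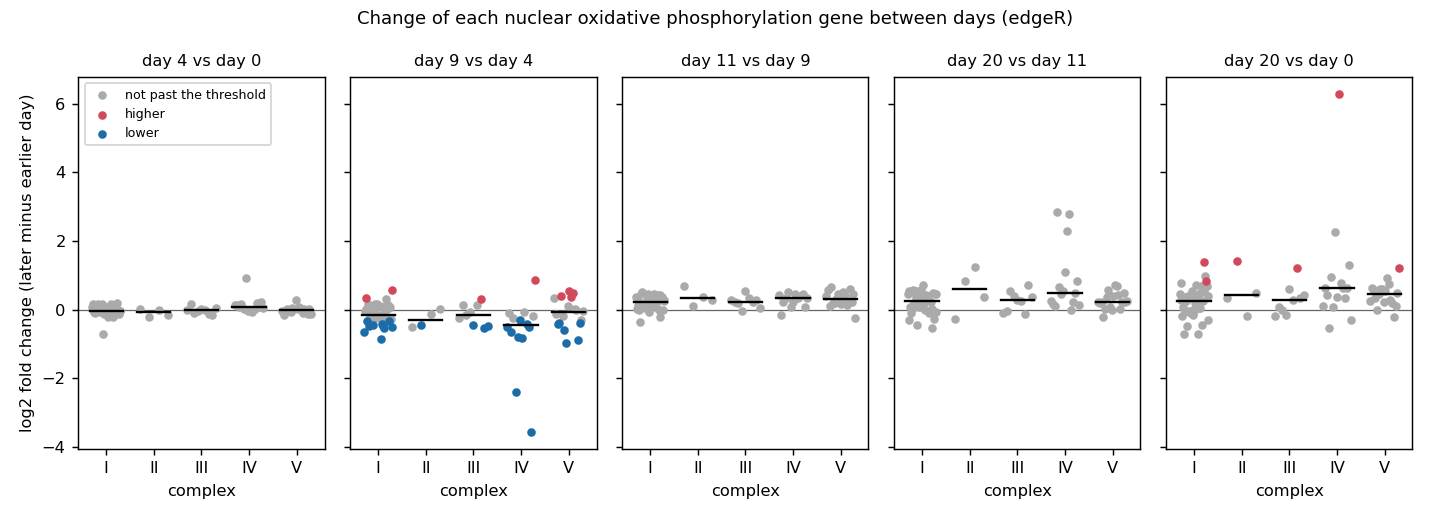
Log2 fold change of each tested member (vertical axis) by complex (horizontal axis) in the 5 comparisons, from edgeR fits on 3 libraries against 3, with a black bar at the median of each complex. Red points were higher and blue points lower at an adjusted p-value under 0.05, and grey points did not pass it. Blue points appear between day 4 and day 9 alone, where 29 members were lower, and the red point at the top right is COX6A2 at 6.29.

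From day 9 to day 11, the interval the study used to define committed cardiac progenitors, no member passed the test in edgeR, yet the values of nearly all of them lay higher on day 11. None of 81 members tested was called, where 1.39% of 20679 genes were higher and 1.00% were lower. At an unadjusted p-value under 0.05 there were 17 members with higher values and 0 with lower ones. Of the 20679 genes, 1853 were higher and 1664 lower at that level. The log2 fold change was positive for 72 of the 81 members (88.9%) and for 50.5% of all genes, with medians of 0.27 and 0.00. For 37 members (45.7%) all 3 day 11 libraries lay above all 3 day 9 libraries in TMM-scaled CPM (counts relative to library size), the scale of the fit and of all counts of overlap over the members, which was so for 11.7% of all genes, and the reverse held for 1 member, NDUFB4, and for 12.4% of all genes. Members were measured in the same 6 libraries and do not vary independently. The median over members stayed between 0.18 and 0.30 with each library left out in turn. DESeq2 called 3 members as higher, ATP5F1B, ATP5MC3 and COX6A2, and 0 as lower, where it called 3.89% of 23640 genes as higher and 2.86% as lower. COX6A2 did not pass the edgeR filter on low counts here, with 1, 3 and 1 counts on day 9 and 18, 98 and 11 on day 11. Its call is a description and not a test.

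All 4 genes of complex II lay above day 9 in all 3 day 11 libraries on the CPM scale, although SDHC overlapped in TPM. SDHA stood at 27.2, 28.8 and 39.6 TPM on day 9 and at 46.1, 73.0 and 42.5 TPM on day 11 (log2 fold change 0.69, SE 0.24, edgeR adjusted p = 0.195). Its 3 pseudogenes with counts took 42.4%, 40.6% and 31.7% of the reads of the family on day 9. On day 11 they took 32.8%, 28.8% and 27.5%, and their part in the values of SDHA was not tested. Of the c subunit genes, ATP5MC1 went from between 24.2 and 37.6 TPM to between 42.4 and 56.4 TPM (log2 fold change 0.67, SE 0.18, edgeR adjusted p = 0.102) and ATP5MC3 from between 61.7 and 76.5 TPM to between 101 and 119 TPM (log2 fold change 0.61, SE 0.14, edgeR adjusted p = 0.0668). With the plate as a block, 6 members were higher and 0 lower at an adjusted p-value under 0.05, where 5.66% of all genes were higher and 3.87% were lower. These were ATP5F1B, ATP5MC1, ATP5MC3, ATP5PB, COX8A and SDHA, with log2 fold changes from 0.53 to 0.64. That fit rests on plates 2 and 6, since the plate 5 library of day 11 and the unnumbered library of day 9 have no partner. All 6 cardiomyocyte markers rose over this interval, and the mesenchymal markers summed to between 748 and 2319 TPM on day 9 and between 1203 and 7310 TPM on day 11. Their part in the members' values was not tested. The calls over all genes themselves rested on the plate 2 library of day 9, without which edgeR called no gene between these days.

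From day 11 to day 20 no member passed the test in edgeR, and the day 20 libraries disagreed among themselves. None of 83 members was called, where 1.12% of 21398 genes were higher and 0.435% were lower. At an unadjusted p-value under 0.05 there were 6 of the 83 members with higher values and 0 with lower ones. Of the 21398 genes, 2298 were higher and 1266 lower at that level. DESeq2 called 1 member as higher, COX4I2, where it called 5.40% of 26912 genes as higher and 2.20% as lower. COX4I2 passed the edgeR filter on low counts through day 20, so that its call is a description and not a test. The 3 libraries of day 20 lay above those of day 11 for 9 members (10.8%), against 11.8% of all genes, and below for 1, SDHC, against 10.6% of all genes. Among the 9 in this CPM comparison was SDHA, at 209, 125 and 78.9 TPM on day 20 (log2 fold change against day 11 1.24, SE 0.43, edgeR adjusted p = 0.197). The median over members was 0.29, against 0.07 over all genes, and was -0.03 without the plate 2 library of day 20. In rescaled TPM, plate 2 exceeded every day 11 library for 72 of the 85 members (84.7%), against 30.1% of 24257 genes past the count filter over all 15 libraries. For the library labelled 2_3 this held for 55 members (64.7%), close to the 61.2% of those genes, and for plate 6 for 30 members (35.3%), close to 30.8%. The members below every day 11 library were 2, 12 and 21, or 2.35%, 14.1% and 24.7%, against 33.9%, 19.3% and 32.7% of those genes. The members thus stood apart from other genes mainly in plate 2. The summed cardiomyocyte markers were at 16740, 16320 and 4001 TPM in these libraries, and their part in the members' values was not tested. With all 15 libraries in 1 fit, 4 members were higher, COX4I2, COX6A2, COX7B and SDHA, and 0 lower, below the 8.39% of 24767 genes that were higher and the 4.26% that were lower in that fit. COX6A2 passed the filter on low counts there only through the later days, so that its place among them is a description and not a test.

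Against day 0, 6 members had risen by day 20 and none had fallen. The 6 were COX6A2, SDHA, NDUFB5, UQCRC2, ATP5PF and NDUFA10, at least 1 from each complex. COX6A2 passed the filter on low counts only through day 20, so that its place among them is a description and not a test. They made up 7.23% of the 83 members tested, below the 16.1% of all 21988 genes that were higher, and the share of members that were lower, 0%, compares with 11.3% of all genes. The log2 fold change was positive for 63 members (75.9%) and for 53.8% of all genes, with medians of 0.34 and 0.11. All 3 day 20 libraries lay above those of day 0 for 21 members (25.3%), close to the 24.2% of all genes, and below them for 2 members, COX7C and NDUFA13, against 22.5% of all genes. In TPM the libraries of both of these genes overlapped. Other scalings moved the median of all genes from 0.11 to 0.20 with upper quartiles and 0.23 with library size alone, and that of the members to 0.37 and 0.40.

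Outside complex IV, SDHA had the largest fold change, from 48.5, 45.6 and 37.6 TPM to 209, 125 and 78.9 TPM (log2 fold change 1.42, SE 0.39, edgeR adjusted p = 0.03). All 3 later libraries lay above all earlier ones, and the highest, plate 2, held more than its partners. The 3 SDHA pseudogenes with counts took 22.6% to 26.2% of the reads of the family on day 0 and 11.1% to 20.5% on day 20. Without the plate 2 library of day 20 the log2 fold change of SDHA was 0.80 (edgeR adjusted p = 0.0671). NDUFB5 rose from 30.3, 27.3 and 19.0 TPM to 103, 79 and 52.7 TPM (log2 fold change 1.38, SE 0.31, edgeR adjusted p = 0.0136), ATP5PF from 51.6, 55.0 and 37.8 TPM to 148, 163 and 90.6 TPM (log2 fold change 1.21, SE 0.27, edgeR adjusted p = 0.0121), UQCRC2 from 113, 107 and 80.1 TPM to 370, 237 and 201 TPM (log2 fold change 1.21, SE 0.34, edgeR adjusted p = 0.0311) and NDUFA10 from 24.9, 27.2 and 19.9 TPM to 59.5, 54.4 and 39.5 TPM (log2 fold change 0.84, SE 0.26, edgeR adjusted p = 0.045). NDUFB5, UQCRC2, ATP5PF and NDUFA10 were also among the 8 members that rose from day 4 to day 9, a comparison that shares no library with this one. In each of these 4 genes and SDHA, plate 6 had the lowest value of day 20. The other 3 subunits of complex II did not pass the test: SDHB stood at 154, 99.9 and 90.6 TPM on day 20, SDHC at 16.7, 18.8 and 15.2 TPM and SDHD at 122, 59.2 and 72.0 TPM.

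The count of 6 was unstable. It was 1, 2 and 1 without day 0 replicate 1, 2 or 3, then 3 without plate 2 of day 20, 14 without the library labelled 2_3 and 5 without plate 6. SDHA lost its call without any 1 of the day 0 libraries or plate 2 of day 20, NDUFB5 without any 1 of the day 0 libraries, ATP5PF without day 0 replicate 1 or 3, and UQCRC2 and NDUFA10 without any 1 of the day 0 libraries or plate 2 or 6 of day 20. Each of these counts includes COX6A2, which entered the test only through its high counts on day 20. The counts are given without the share of all genes in the same fits and show the instability alone. No other member passed when the threshold was set at 0.01.

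**Figure D3:**
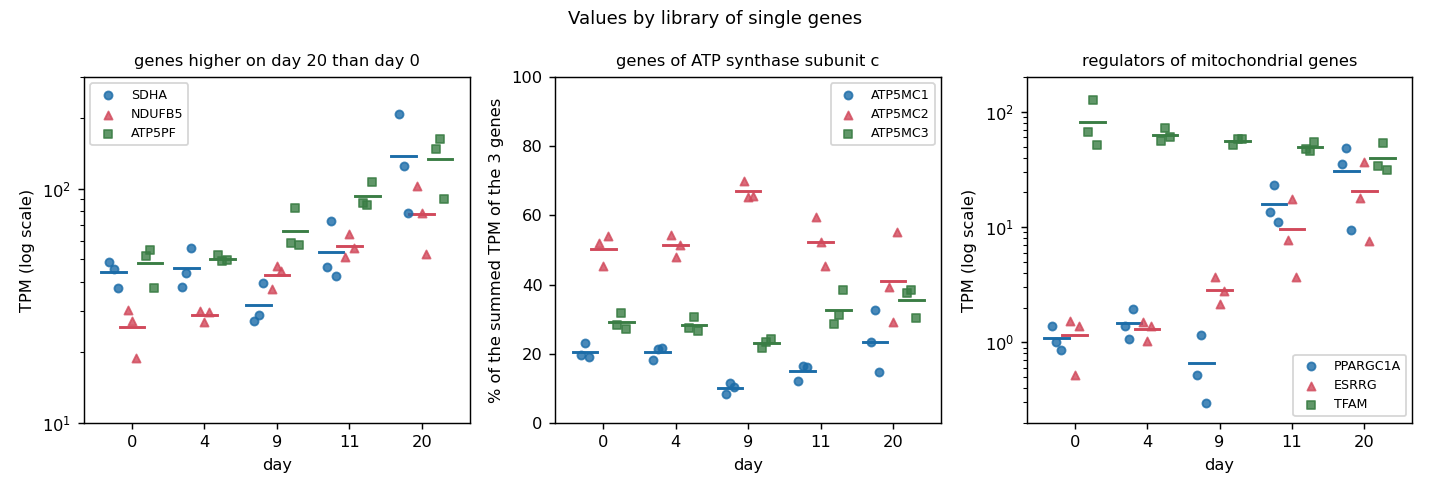
Values by library and day (horizontal axes), 3 points per day and a bar at their mean. Left, TPM on a log axis of SDHA, NDUFB5 and ATP5PF, which reached 52.7 TPM or more in every day 20 library. Middle, the share of each ATP5MC gene in the summed TPM of the 3, where ATP5MC1 dropped to 10.1% on day 9. Right, TPM on a log axis of PPARGC1A, ESRRG and TFAM, where PPARGC1A went from at most 1.95 TPM through day 9 to at least 9.48 TPM on days 11 and 20.

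Complex IV subunits 4, 6A and 7A each have a widespread isoform and one that is restricted to certain tissues. COX6A2 replaces COX6A1, and COX7A1 replaces COX7A2, in mature heart and skeletal muscle. COX6A2 was at 1.33, 0.444 and 1.91 TPM on day 0 and at no more than 1.55 TPM in any library of days 4 and 9. It stood at 5.67, 34.9 and 3.25 TPM on day 11 and at 219, 71.6 and 24.5 TPM on day 20. The fitted log2 fold change from day 0 to day 20 was 6.29, from 5, 2 and 4 counts on day 0 and 737, 152 and 59 on day 20. The filter on low counts was passed through day 20 alone, and no p-value is given. The ratio of summed counts per library total was 103, with an exact 95% interval for counting error of 57.2 to 207. Between day 9 and day 11 the counts went from 1, 3 and 1 to 18, 98 and 11, a ratio of 24.6 with an interval of 10.3 to 77.1, in a comparison where the gene did not pass the filter on low counts.

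The share of COX6A2 in the summed TPM of the pair was 0.211% to 1.13% on day 0, 1.77% to 17.6% on day 11 and 46.9%, 30.1% and 14.2% in plate 2, the library labelled 2_3 and plate 6 of day 20. The log2 ratio of COX6A2 to COX6A1, with 1 added to each TPM, was -6.52 ± 0.67 (SD, n = 3) on day 0 and -1.31 ± 1.19 on day 20, a difference of 5.21 with an exact two-sided permutation p of 0.1, the smallest possible here. COX6A2 was highest in the libraries with the most MYH6, which encodes a cardiac myosin heavy chain: on day 11 MYH6 stood at 2745, 10863 and 1598 TPM in plates 2, 5 and 6, and on day 20 at 10790, 7924 and 1877 TPM in plate 2, the library labelled 2_3 and plate 6. Within each of these days the 2 genes had the same order. Of the other cardiomyocyte markers, ACTN2 and TNNI1 also had the order of COX6A2 on both days. ACTC1, TNNT2 and MYL4 did not: on day 20 they were highest in the library labelled 2_3, where COX6A2 was not. On day 11 ACTC1 and TNNT2 had its order, whereas MYL4 was higher in plate 6 than in plate 2.

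COX7A1 was at 4.59, 5.02 and 4.10 TPM on day 0 and at 13.9, 20.8 and 7.14 TPM on day 20. The later libraries lay above the earlier ones, but the change did not pass the test (log2 fold change 1.29, SE 0.51, edgeR adjusted p = 0.0977). It supplied 1.94% to 2.53% of the TPM of the pair on day 0 and 3.28% to 10.6% on day 20, and the log2 ratio to COX7A2 differed by 1.07 between the days (exact two-sided permutation p = 0.1). The highest share came from the library labelled 2_3, and without that library the difference was 0.54.

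COX4I2 had no steady course. It went from 4.37, 0.347 and 3.72 TPM on day 0 through the low of day 9 to 3.69, 1.67 and 0.691 TPM on day 11 and 6.74, 13.2 and 26.6 TPM on day 20. Unlike COX6A2, COX4I2 was highest in plate 6 on day 20. That library had the most mesenchymal, endothelial and yolk sac or liver endoderm marker TPM and the least cardiomyocyte marker TPM. The plate 6 library of day 11 had the same places within its day, at 7310, 613, 2983 and 5358 TPM. There COX4I2 was lowest, at 0.691 TPM. From day 11 to day 20 the log2 fold change of COX4I2 was 2.84 (SE 0.83, edgeR adjusted p = 0.134). Its counts were 15, 6 and 3 on day 11 and 29, 36 and 82 on day 20. It passed the filter on low counts through day 20, so that this value is a description and not a test. The log2 ratio of COX4I2 to COX4I1 differed between day 0 and day 20 by 1.63 (exact two-sided permutation p = 0.3). COX4I1 itself was at 114 to 144 TPM on day 0 and at 168 to 253 TPM on day 20. COX6B2 reached 18.7 TPM in the plate 6 library of day 20, against 1.18 and 4.95 TPM in the other libraries of that day.

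**Figure D4:**
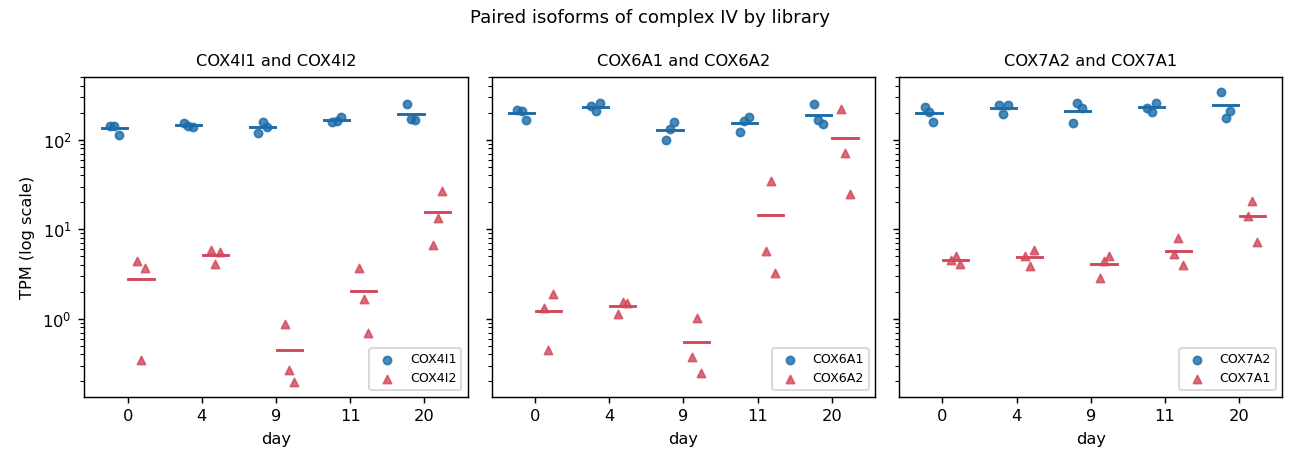
TPM on a log axis (vertical) by day (horizontal) of the widespread isoforms COX4I1, COX6A1 and COX7A2 (circles) and of COX4I2, COX6A2 and COX7A1 (triangles), with 1 point per library and a bar at the mean of 3. COX6A2 climbed from at most 1.91 TPM through day 9 to between 24.5 and 219 TPM on day 20, while COX6A1 stayed between 98.2 and 259 TPM.

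The promoters of COX6A1 and COX6A2 are shown because this pair had the largest shift. That of COX6A1 lies at chr12:120437863-120438162 on the plus strand of GRCh38.p14, and capitals mark 2 NRF1 cores (1 on each strand, the first in the reading direction), 1 ETS core on the opposite strand and 1 YY1 core after the start site. That of COX6A2 lies at chr16:31428311-31428610 on the minus strand and holds none of the 4 motifs.
COX6A1: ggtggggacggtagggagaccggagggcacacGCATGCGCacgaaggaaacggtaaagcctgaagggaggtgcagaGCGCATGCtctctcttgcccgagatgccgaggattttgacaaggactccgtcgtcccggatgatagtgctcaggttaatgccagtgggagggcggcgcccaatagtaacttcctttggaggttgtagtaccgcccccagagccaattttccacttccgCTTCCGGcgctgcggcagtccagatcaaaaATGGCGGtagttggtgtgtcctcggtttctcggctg
COX6A2: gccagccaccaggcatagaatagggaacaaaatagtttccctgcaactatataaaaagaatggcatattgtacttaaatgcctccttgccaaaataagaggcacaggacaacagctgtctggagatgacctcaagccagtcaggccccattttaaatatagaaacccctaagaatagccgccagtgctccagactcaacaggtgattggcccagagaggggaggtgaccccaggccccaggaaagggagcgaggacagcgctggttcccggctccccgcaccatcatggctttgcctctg

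Promoter windows were matched for 68 of the 85 members. The NRF1 core was in 13 of them (19.1%) and in 4.25% of all 15345 protein-coding promoters in the table, the ETS core in 20 (29.4%) and 14.4%, and the YY1 core in 19 (27.9%) and 7.75%. Both strands were searched, a window was counted once per motif, and matches could overlap. The YY1 core was in 13 of 31 windows of complex I (41.9%), 2 of 3 of complex II, 2 of 7 of complex III, 1 of 13 of complex IV and 1 of 14 of complex V. The ESRR site was found in 1 member, SDHD, and in 0.241% of all promoters. In complex II the windows of SDHB and SDHD held the NRF1, ETS and YY1 cores, and that of SDHA held none of them. A match is a stretch of letters and not evidence of binding.

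Single genes that regulate mitochondrial biogenesis went in opposite directions. PPARGC1A, the coactivator PGC-1alpha, was at 0.299 to 1.95 TPM in every library through day 9, at 13.4, 23.3 and 11.1 TPM on day 11 and at 34.9, 48.1 and 9.48 TPM on day 20. It rose by 4.57 on the log2 scale from day 9 to day 11 (SE 0.51, edgeR adjusted p = 0.0147, and 0.107 without the plate 2 library of day 9) and by 4.52 from day 0 to day 20 (SE 0.54, edgeR adjusted p = 0.00107). ESRRG, an estrogen-related receptor that works with it in heart, rose from day 4 to day 9 by 1.16 (SE 0.28, edgeR adjusted p = 0.00804) and from day 0 to day 20 by 3.8 (SE 0.61, edgeR adjusted p = 0.00354), reaching 17.7, 36.7 and 7.51 TPM. Both had their lowest day 20 value in plate 6. TFAM, which packages mitochondrial DNA and takes part in starting its transcription, was lower on day 20 than on day 0, at 33.7, 53.8 and 31.4 TPM against 67.2, 126 and 51.6 TPM (log2 fold change -1.32, SE 0.34, edgeR adjusted p = 0.022), although in TPM 1 library of day 20 lay above the lowest of day 0. This call was lost without day 0 replicate 2 and without plate 6 of day 20.

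Of the 12 regulators, 1 was higher and 2 were lower from day 4 to day 9, 1 was higher from day 9 to day 11, and 2 were higher and 1 was lower from day 0 to day 20, with 0 past the test in the other comparisons. The shares from day 4 to day 9, 8.33% higher and 16.7% lower, and from day 0 to day 20, 16.7% higher and 8.33% lower, were below or close to those of all genes, at 24.3% and 24.7% and at 16.1% and 11.3%. From day 9 to day 11 the share was 8.33%, above the 1.39% of all genes that were higher, and rested on PPARGC1A alone. The 2 that fell by day 9 were PPARGC1B, a relative of PPARGC1A (log2 fold change -1.24, SE 0.27, edgeR adjusted p = 0.00638), and POLRMT, the mitochondrial RNA polymerase (log2 fold change -0.53, SE 0.10, edgeR adjusted p = 0.0028). NRF1, GABPA, YY1, ESRRA, POLG, TFB2M and TWNK did not pass the test in any of the 5 comparisons. ESRRA came nearest, with a mean of 23.7 TPM on day 9 and 47.7 TPM on day 11 (edgeR adjusted p = 0.0544).

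Of 46 assembly factors tested, 10 were higher and 5 lower from day 4 to day 9, both shares below the 24.3% and 24.7% of all genes. Complex IV assembly had 4 higher (21.1%) and 3 lower (15.8%) of 19, among them the haem A synthesis gene COX10 (log2 fold change 0.55, SE 0.13, edgeR adjusted p = 0.00806) and the copper chaperone gene COX11 (0.67, SE 0.10, adjusted p = 9.48e-04), both higher, and the copper delivery gene SCO1, lower (-0.81, SE 0.13, adjusted p = 0.00121). NDUFAF7, a methyltransferase for a complex I subunit, fell by 1.39 on the log2 scale (SE 0.18, edgeR adjusted p = 3.73e-04) and NUBPL, which delivers iron-sulfur clusters to complex I, rose by 0.71 (SE 0.15, edgeR adjusted p = 0.00464). Both were past the test in the same direction from day 0 to day 20, at -1.22 and 1.47. Median log2 fold changes over the complex IV assembly list and over complex IV itself were 0.10 and -0.46 from day 4 to day 9. Of 4 further genes listed beside the members, 3 were lower in that interval (75.0%), against 24.7% of all genes. CYCS, which encodes cytochrome c, was lower (log2 fold change -0.82, SE 0.15, edgeR adjusted p = 0.0021). So were NDUFAB1 and NDUFA4L2, the latter at 8.32 TPM or less on both days. CYC1, a complex III subunit that the symbol rule leaves out, was not called. Of 5 genes taken as a measure of mitochondrial content, HSPD1 fell from day 4 to day 9 (log2 fold change -0.63), TOMM20 rose (0.50), and VDAC1, CS and TIMM23 did not pass the test.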

How the data were processed

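Members and gene lists were chosen with earlier results of these data known. Per the labels' processing notes and the methods, the authors aligned paired reads of stranded, rRNA-depleted total RNA to hg38 with STAR 2.5.2b, removed rRNA and mitochondrial genes and deposited raw counts per gene from featureCounts 1.5.1, without normalization. The authors also deposited TPM per library (gene length not stated) and a sample table with the RNA integrity number, a score, and the uniquely mapped fraction. Settings for strand and shared reads are not given in the sources used here.

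For each pair of days the counts of its 6 libraries, 11990302 to 33469703 per library, were tested in edgeR 4.0.16 (R 4.3.3) by the robust quasi-likelihood test, two-sided, after TMM scaling and filterByExpr at a minimum count of 10, with Benjamini-Hochberg adjustment over all genes and a threshold of 0.05. Single ratios were compared by exact permutation (scipy 1.17.1, Python 3.11.15). Symbols came from GENCODE v44. Alternatives were DESeq2 1.42.0, limma 3.58.1 on log2(TPM + 1) or log2(TPM + 0.1), other scalings, filters and thresholds, all 15 libraries in 1 fit, plate or lane as a block, and each library left out. The methods were tested on simulated data. Deviations from the day means of libraries with the same plate number correlated at 0.139 and 0.356 for days 9 and 11, and at -0.179, 0.00371 and 0.378 for days 11 and 20. The pairs at 0.356 and -0.179 also shared a sequencing lane, so that plate and lane cannot be told apart in them.

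Named genes were the members past the test in a comparison (the 5 largest increases and decreases where more than 10 passed), the isoform genes of subunits 4, 6A and 7A, ATP5MC1 to ATP5MC3, NDUFA4, SDHA to SDHD, the highest, lowest, most and least variable members, the symbols left out, the regulators, and up to 5 assembly factors in each direction. Of the increases from day 4 to day 9, UQCRC2 and NDUFA10 fall outside this rule and are named because they passed from day 0 to day 20, and NDUFB4, NDUFA13, COX7C, COX7B, COX8C and genes called only in an alternative were named after their values were seen. Of 94 list genes 93 were found.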

Additional observations from a re-analysis of the deposited data

How the results depend on the processing

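No named log2 fold change changed direction: of 571 values of 36 results, 477 stayed on the same side of the threshold or had no adjusted p-value in the alternative, 80 lost a call and 14 gained one. From day 0 to day 4 no alternative called a member. From day 4 to day 9 the 37 calls became 17 at an adjusted p-value under 0.01 and 9 with all 15 libraries in 1 fit, and ranged from 21 to 33 with 1 library left out. From day 9 to day 11, 0 became 3 with DESeq2, with COX6A2 among them only as a description, and 6 with the plate as a replicate block. From day 11 to day 20, 0 became 1 with DESeq2, COX4I2 as a description, and 4 with all 15 libraries. The plate block left the count of members at 0 while the calls over all genes went from 239 higher and 93 lower to 2 and 1. With 1 library left out both counts stayed at 0. From day 0 to day 20, 6 became 1 at an adjusted p-value under 0.01, 12 with upper quartiles, 11 with library size alone, 1 without a filter, 21 with all 15 libraries and 15 with limma on log2(TPM + 1) or log2(TPM + 0.1), and ranged from 1 to 14 with 1 library left out. The cause was not tested. These counts show how the calls moved between fits. Where the share of all genes in the same fit is not given, they do not set the members against other genes. The plate block could not be fitted for the other comparisons, which share fewer than 2 plate numbers, and the sequencing lane as a block left 25, 0 and 0 calls in the 3 comparisons from day 4 to day 20. The difference of 5.21 in the log2 ratio of COX6A2 to COX6A1 became 3.53 on TMM-scaled CPM with 1 added and ranged from 4.65 to 5.83 with 1 library left out. For COX4I2 to COX4I1 the range was 0.94 to 2.27, and for COX7A1 to COX7A2 0.54 to 1.38. Of 30 sums of TPM by complex and day, 18 moved by more than 1 SD on rescaling. COX8C and ATP5MGL never passed the filter on low counts, COX6A2 passed it only where day 20 was compared, and COX4I2 did not pass it for days 9 and 11, so depth limits what can be said of these genes.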

Other observations

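Among members at low levels, COX8C, an isoform of subunit 8 known from testis, had 0 to 5 counts per library through day 9, 9, 9 and 2 on day 11 and 20, 22 and 6 on day 20, and supplied 0.43% to 2.5% of the summed TPM of COX8C and COX8A on day 20. COX7B2 had 9 counts, all in the library labelled 2_3 of day 20, and 0 in the other 14 libraries. ATP5MGL had 2 to 19 counts per library, with the highest again in the library labelled 2_3.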
